A study of Mus musculus with 30 samples.

Results

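The nuclear genes for the subunits of mitochondrial oxidative phosphorylation were followed through the small intestinal epithelium of mice given an aryl hydrocarbon receptor (AHR) agonist or its vehicle. Members were taken by symbol: every gene of the count table whose name begins as a subunit of NADH dehydrogenase (Nduf followed by a, b, c, s or v and a number, and Ndufab1), as Sdha to Sdhd, Uqcr, Cox4 to Cox8 or Atp5, leaving out symbols with a hyphen. The rule gave 89 of 54146 genes, of which 36 belong to complex I, 4 to complex II, 8 to complex III, 19 to complex IV and 15 to complex V. The other 7 are factors whose names begin alike but which are not subunits: the complex II assembly factors Sdhaf1 to Sdhaf4, the supercomplex factor Cox7a2l, Atp5s and Atp5sl. Ndufa4, once counted to complex I, and its relative Ndufa4l2 were placed with complex IV.

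The respiratory chain oxidises NADH at complex I and succinate at complex II, passes the electrons through ubiquinone, complex III and cytochrome c to oxygen at complex IV, and pumps protons that drive the ATP synthase, complex V. A few core subunits are encoded in mitochondrial DNA and all others in the nucleus. In the intestinal epithelium, dividing crypt cells give rise to absorptive enterocytes that move up the villus and depend on mitochondria for nutrient transport and lipid handling. Several subunits of complex IV exist as isoforms that differ between tissues.

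The mice were female C57BL/6 animals of 8 to 10 weeks, labelled wild type, kept on the purified diet AIN93G for 1 week, a diet that lacks AHR agonists. ICZ mice received 10 µg of indolo[3,2-b]carbazole, a potent diet-derived AHR agonist, by gavage in corn oil, and vehicle mice the gavage without it, and tissue was taken after 12 h. EDTA released the epithelium of each mouse in 5 successive fractions, F1 to F5, and a QuantSeq library, which reads the 3′ end of each mRNA, was made from each. The 3 ICZ mice gave 14 libraries (ICZ replicate 3 enters with F2 to F5), and 3 vehicle mice gave 15. Each library held between 4359673 and 7819837 reads in genes, with a median of 6351137.

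Markers show in part what the fractions hold. Between F5 and F1 of vehicle mice, 15 of 16 absorptive enterocyte genes fell, 13 of 15 proliferation genes and 8 of 10 stem cell genes rose, and all 12 genes of the dissociation stress response rose. All 8 Paneth cell genes rose as well, and of 7 tested goblet cell genes 4 fell and 1 rose. Of all genes 13.2% fell and 14.9% rose there. Between F5 and F1 of ICZ mice 15 of 16 enterocyte genes fell, and 15 of 15 proliferation, 9 of 10 stem cell, 8 of 8 Paneth cell and 8 of 12 stress genes rose. Of 7 goblet cell genes 4 fell and 1 rose, and of all genes 16% fell and 16.5% rose. T and NK cell markers summed to 457 and 684 CPM in F1 of ICZ mice, against 586, 184 and 205 CPM in F5. In vehicle mice they summed to 291, 487 and 791 CPM in F1, against 292, 263 and 183 CPM in F5. The fractions thus differ in cell types and in stress genes at once, and in bulk RNA a smaller number of cells of a type and less RNA per cell cannot be told apart. Mitochondrially encoded transcripts took between 20.4% and 53.7% of gene reads, and the highest share was that of the F5 library of ICZ replicate 1, which also had the lowest member share. For F5 of ICZ mice against F1, F2 and F3, member counts without that library are given as well.

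Of the 89 members, 83 had reads. Ndufs3, Uqcrc1, Atp5a1, Cox7b2, Cox8b and Cox8c were listed at 0 reads in all 29 libraries, which says only that the table counts none for them, since Atp5a1 and Uqcrc1 are needed in every respiring cell. Cox4i2, the lung isoform of subunit 4, had 7 reads in all and Ndufa4l2 had 6. Between 79 and 81 members had enough reads to be tested, depending on the comparison. The last 300 exonic bases, where 3′ end reads fall, were searched for 50-base stretches found in other genes and for exons of other genes. Neither was found for 61 members, and 8 shared at least 50% of their stretches (Uqcrc2, Atp5g2, Ndufb6, Cox7c, Atp5l, Cox5a, Ndufs5 and Ndufs3). Counts of those 8 are uncertain, and their median total was 1637 reads, against 41035 for the 61. The ends of Uqcrc2, Cox5a and Ndufb6 also lie for the most part within exons of other genes. Their reads could have been counted for either gene or for neither. None of the members called in F5 against F1 is among the 8, although Uqcrb shares 40.6% and Ndufb3 19.1% of its stretches with other genes.

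All members together took a similar share of the nuclear-encoded gene reads in every group, and the profile over the fractions was low at both ends. In ICZ mice the share averaged 3.03%, 3.69%, 3.67%, 3.51% and 3.13% from F1 to F5, and in vehicle mice 3.23%, 3.32%, 3.65%, 3.61% and 3.15%. The SD over mice was at most 0.243 percentage points except in F5 of ICZ mice, where it was 0.587. There the 3 mice had 2.51%, 3.68% and 3.18%, so that they spanned nearly the whole range of the study. Without replicate 1 the mean of the other two was 3.43%.

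**Figure D1:**
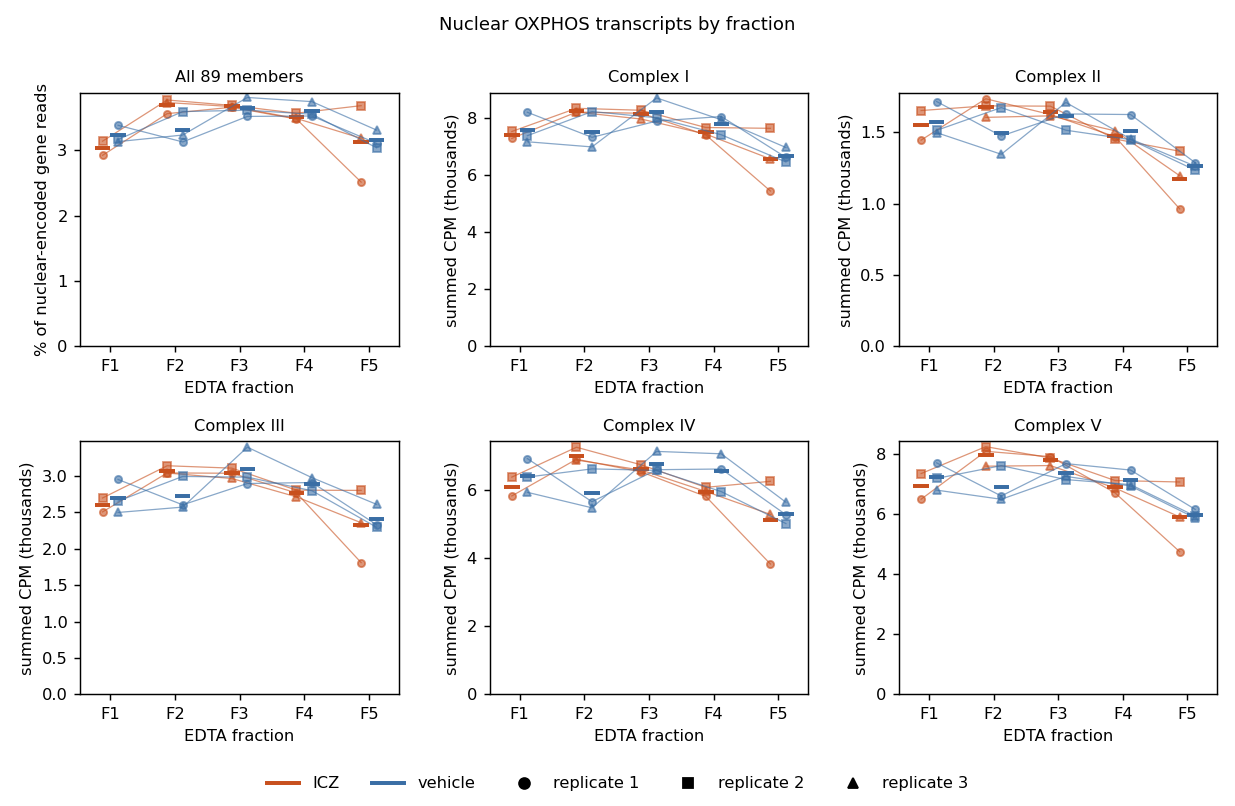
Share of nuclear-encoded gene reads taken by all 89 members (first panel, percent) and summed level of the subunits of each complex (other panels, CPM) over fractions F1 to F5. Points joined by lines are single mice, bars are group means, ICZ is drawn left of vehicle; each complex is lower in F5 than in F3 in the group means, and the F5 library of ICZ replicate 1 is the lowest point of each panel.

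To ask how the subunits differ along the axis without treatment, F5 was set against F1 in vehicle mice. Subunits of each of the 5 complexes were among those that fell. In all, 8 members fell and 0 rose: Ndufb3 and Ndufa6 of complex I, Sdhb of complex II, Uqcrb of complex III, Cox7a1 and Cox7b of complex IV, and Atp5g3 and Atp5f1 of complex V. Of the 80 members tested 68 had a negative log2 fold change and the median was -0.17, against 0.02 over all 13164 genes tested. Calls were made in edgeR by its quasi-likelihood F test, blocked on the mouse, at a Benjamini-Hochberg adjusted p of 0.05 over all genes, by which 13.2% of all genes were lower and 14.9% higher in F5. The 8 of 80 members called lower are no larger a share than that of all genes. At an unadjusted p under 0.05, 21 members were lower and 0 higher, while 39.8% of all genes reached that p in either direction.

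Within complex I, 30 of 35 tested subunits were below 0 and the median was -0.14. Of 4 subunits of complex II, all were below 0, with a median of -0.30. Complex III had 6 of 7 below 0 with a median of -0.12, complex IV 13 of 13 with a median of -0.24, and complex V 12 of 14 with a median of -0.23. The 7 factors did not share this pattern, with 4 above and 3 below 0 and a median of 0.06, and none was called. Above 0 in complex V was Atp5g1, beside Atp5g2, which has too few reads and a shared end for its value to be read, and in complex I Ndufs8, Ndufb6, Ndufa9, Ndufa10 and Ndufb11, none of which was called.

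Cox7a1, on chr7:30184144-30186078 (GRCm38, plus strand), is the heart and skeletal muscle isoform of subunit 7a and had the largest fall of any member. It was at 223, 159 and 169.7 CPM in F5 of vehicle mice, against 329.8, 349.6 and 273 CPM in F1 (CPM, the reads of a gene over those of its library in units of 1e6, with library sizes scaled by trimmed means). All 3 F5 values lay below all 3 F1 values, and the log2 fold change was -0.79 ± 0.14 (SE; edgeR adjusted p = 0.00051). Genes of skeletal and cardiac muscle were nearly absent: the list of 6 summed to between 0 and 6.29 CPM per library, and myoglobin had 0 reads. Stroma and smooth muscle markers were low as well, at 12.2 to 17.9 summed CPM in F5 and 6.68 to 14.3 in F1 of vehicle mice. Mitochondrially encoded transcripts took 37.5%, 26.7% and 23.2% of gene reads in F5, against 22.1%, 24.7% and 27.0% in F1, and absorptive enterocyte markers summed to 20857 ± 7348 CPM in F5, against 42880 ± 5644 CPM in F1 (SD, n = 3 each). The part of either in the result was not tested.

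The other 7 called members fell by less. Ndufb3, a small accessory subunit of the membrane arm of complex I (chr1:58586384-58595964), had 233, 190.2 and 155 CPM in F5, against 269, 319 and 238 CPM in F1. The groups did not overlap, yet the highest F5 value came close to the lowest of F1, and the log2 fold change was -0.52 ± 0.16 (edgeR adjusted p = 0.019). Ndufa6, an accessory subunit of the matrix arm (chr15:82350140-82354322), had 291, 356 and 316 CPM in F5, against 439, 437 and 364 CPM in F1, with no overlap (-0.36 ± 0.11; adjusted p = 0.025).

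Sdhb, the iron-sulfur subunit that carries electrons through succinate dehydrogenase (chr4:140961203-140979193), had 723, 655 and 771 CPM in F5, against 1049.8, 859.5 and 872 CPM in F1. No F5 library reached the lowest F1 library, and the log2 fold change was -0.37 ± 0.13 (edgeR adjusted p = 0.048). Uqcrb, a small subunit of complex III that binds ubiquinone (chr13:66900617-66905378), had 254, 230.2 and 218 CPM in F5, against 309, 296 and 270.1 CPM in F1 (-0.31 ± 0.11; adjusted p = 0.034). Here too the groups stood apart.

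Cox7b, a small subunit of complex IV on the X chromosome (chrX:106015700-106022450), had 486, 454 and 443 CPM in F5, against 568, 602 and 561 CPM in F1 (-0.32 ± 0.11; edgeR adjusted p = 0.035). In complex V, Atp5g3, one of the genes for subunit c of the rotating membrane ring (chr2:73908447-73911326), had 1523, 1489 and 1375 CPM in F5, against 2073, 2052 and 1701 CPM in F1 (-0.40 ± 0.14; adjusted p = 0.036). Atp5f1, subunit b of the peripheral stalk (chr3:105942698-105960099), had 349, 341 and 302 CPM in F5, against 412, 413 and 408 CPM in F1 (-0.31 ± 0.11; adjusted p = 0.041). All of these values were lower in each of the 3 mice, and F1 levels of Atp5f1 hardly varied between them.

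These calls lie near the threshold. Without vehicle replicate 2 or without vehicle replicate 3 only Cox7a1 was still called. Without vehicle replicate 1 there were 10 calls, and without the mouse as a block there was 1. The share of all genes called in each of these fits is not given here, so the counts show only how the calls moved. Per mouse, the median difference of 81 members between F5 and F1 was -0.23, -0.21 and -0.07 on the log2 scale in vehicle replicates 1 to 3.

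The ICZ mice gave a separate set of libraries for the same comparison, with 3 F5 and 2 F1 libraries. Of 80 tested members 7 fell and 0 rose, while 16% of all 13328 genes were lower and 16.5% higher. The median was -0.17, against 0.04 over all genes, and 62 members were below 0. At an unadjusted p under 0.05, 19 members were lower and 1 higher, where 42.8% of all genes reached that p. Cox7a1, Ndufa6 and Sdhb were called in both treatments, 3 of the 8 calls in vehicle mice and 3 of the 7 in ICZ mice. The other 4 calls were Sdha, the flavoprotein subunit that oxidises succinate, Ndufc1 of the membrane arm of complex I, and Cox6a1 and Cox7a2, the widely expressed isoforms of subunits 6a and 7a.

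Cox7a1 had 118, 150.3 and 133 CPM in F5 of ICZ mice, against 274 and 324 CPM in F1, a log2 fold change of -1.11 ± 0.11 (SE; edgeR adjusted p = 3.5e-06). Ndufa6 had 245, 341 and 289 CPM in F5, against 403 and 435 CPM in F1 (-0.51 ± 0.12; adjusted p = 0.0029). Sdhb had 553, 761 and 698 CPM in F5, against 868 and 924 CPM in F1 (-0.43 ± 0.12; adjusted p = 0.011). For each of these genes every F5 library lay below both F1 libraries. Sdha had 257, 386 and 332 CPM in F5, against 393 and 439 CPM in F1, and Cox6a1 had 740.2, 1097 and 978 CPM, against 1235 and 1352 CPM. Cox7a2 had 418, 718 and 603 CPM in F5 and 751 and 774 CPM in F1, and Ndufc1 had 242, 292 and 258 CPM in F5 and 319.7 and 346 CPM in F1. In all 4 of them the lowest value was that of the F5 library of ICZ replicate 1, and the fold changes lay between -0.46 and -0.30 with edgeR adjusted p between 0.0080 and 0.046.

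The 2 ICZ mice with both fractions differed from each other. The median difference of 81 members between F5 and F1 was -0.43 in ICZ replicate 1, with 75 members below, and 0.00 in ICZ replicate 2, with 40 below. Mitochondrially encoded transcripts took 53.7%, 29.4% and 29.4% of gene reads in F5 of ICZ replicates 1 to 3, against 27.1% and 26.3% in F1 of replicates 1 and 2. Their part in the result was not tested beyond leaving the library out: without the F5 library of ICZ replicate 1 there were 5 members lower and 4 higher (Cox7a2l, Cox4i1, Ndufs8 and Sdhaf1), and the median was -0.04, where 20.7% of all 13271 genes were higher and 20% lower. Only ICZ replicate 2 then has both F5 and F1, and replicates 1 and 3 enter through their other fractions. Cox7a1 was still lower without that library, at -1.03 (edgeR adjusted p = 9.4e-08). So were Ndufa6 (-0.40, adjusted p = 0.0038), Sdhb (-0.30, 0.021), Sdha (-0.26, 0.046) and Cox6a1 (-0.32, 0.013) by the same test. Cox7a2 (-0.20; edgeR adjusted p = 0.13) and Ndufc1 (-0.22; adjusted p = 0.081) were not called. Without ICZ replicate 3, 3 members were called lower, and the share of all genes in that fit is not given here. Without replicate 1 or 2, F1 is a single library that is assumed to vary like those of the other fractions. The number of calls in those fits is therefore not given. Stroma and smooth muscle markers summed to 31.5, 29.8 and 157 CPM in F5 of ICZ mice, against 9.20 and 10.2 CPM in F1, and absorptive enterocyte markers averaged 18693 CPM, against 49544 CPM in F1; their part was not tested. No difference of the F5 to F1 change between ICZ and vehicle mice was called for any member in a joint edgeR fit, with a smallest adjusted p of 1, 0% of all 14067 genes called and 0 members at an unadjusted p under 0.05, which 4.66% of all genes reached. Without the F5 library of ICZ replicate 1 again 0 members were called, with 4 of 81 at an unadjusted p under 0.05, which 1000 of 14001 genes reached. The median over members was then 0.17, against 0.01 over all genes.

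**Figure D2:**
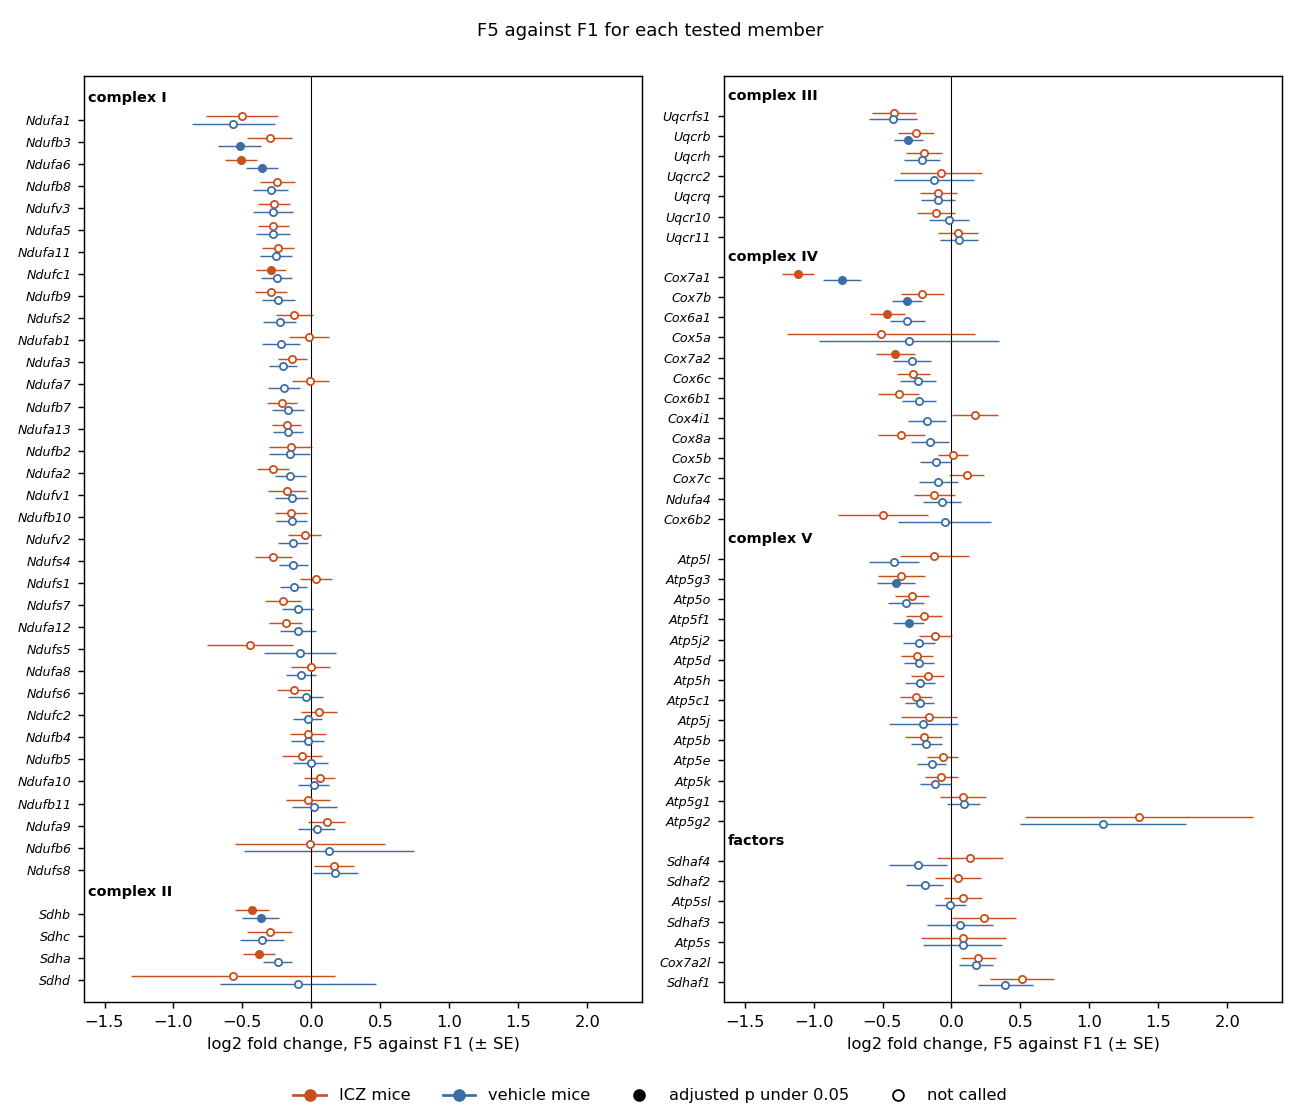
Log2 fold change of F5 against F1 with its SE for each tested member, by complex, in ICZ mice (orange, upper point) and vehicle mice (blue, lower point). Filled points passed an adjusted p of 0.05; 62 of 80 points in ICZ mice and 68 of 80 in vehicle mice lie left of 0, Cox7a1 lies farthest left, and the 7 factors at the lower right scatter around or above 0.

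The remaining pairs of fractions were chosen for testing after their values had been seen. In vehicle mice the members' medians in F2, F3 and F4 against F1 were -0.01, 0.11 and 0.05, and 1 member was called, the assembly factor Sdhaf1, which was higher in F4 (0.55 ± 0.20; edgeR adjusted p = 0.049; 13.4% of all genes were called higher there and 11.5% lower). In F3 against F1, with 0 members called, 4.18% of all genes were higher and 2.8% lower, and in F2 against F1 0% in either direction. Against F3, F5 of vehicle mice had 5 members lower (Ndufb8, Ndufb9, Sdhb, Cox7a1 and Atp5k), 0 higher and a median of -0.28, where 1.71% of all genes were lower and 1.62% higher. Against F2 only Cox7a1 was lower (-0.60; adjusted p = 0.012), with 4.68% of all genes lower and 4.19% higher. Against F4 the median was -0.22 and 77 of 80 members were below 0, but 0 were called by edgeR, with 21 lower at an unadjusted p under 0.05 (0% of all genes were called lower, 0.0684% higher, and 7.25% reached the unadjusted p). The F5 against F3 count was 0 without vehicle replicate 2, without vehicle replicate 3 or without the mouse block, and 11 in DESeq2. Without vehicle replicate 1, 5 members were called higher in F5 than in F3. Shares of all genes under these settings are not given here, so the counts are not read as results about the members.

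In ICZ mice the levels were higher in the middle of the series. F2 and F3 had medians of 0.17 and 0.18 against F1, with Ndufs8, an iron-sulfur subunit of complex I, called higher in F2 (0.48 ± 0.14; edgeR adjusted p = 0.043) and Ndufa4 in F3 (0.51 ± 0.15; adjusted p = 0.023), where 6.07% and 10.7% of all genes were higher and 3.29% and 8.4% lower. In F4 Cox7a1 was already lower than in F1 (-0.52 ± 0.11; adjusted p = 0.0030), with 13.8% of all genes higher and 13% lower. Against F2, 33 of 80 members were lower in F5 and 0 higher, while 10.5% of all 13328 genes were lower and 6.69% higher. Against F3 the members lower in F5 numbered 23, with 6.26% of all genes lower and 3.15% higher. Both medians were -0.30. Both comparisons rest on 3 mice with both fractions, where F5 against F1 has 2.

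The 33 members lower in F5 than in F2 of ICZ mice came from every complex: 13 of 35 tested subunits of complex I, 3 of 4 of complex II, 5 of 7 of complex III, 6 of 13 of complex IV and 6 of 14 of complex V, and 0 of 7 factors. Next to Cox7a1 (-1.01 ± 0.10; edgeR adjusted p = 7.2e-06) the smallest p was that of Ndufa6 (-0.64 ± 0.10; adjusted p = 0.00043). Atp5g3 had 937, 1863 and 1383 CPM in F5, against 2340.3, 2579.7 and 2130.3 CPM in F2, without overlap (-0.78 ± 0.15; adjusted p = 0.0017). Sdha had 257, 386 and 332 CPM in F5, against 474, 486 and 479.8 CPM in F2 (-0.57 ± 0.10; adjusted p = 0.0012). The F2 values of Sdha were nearly equal in the 3 mice, and its spread lay in F5. Leaving out ICZ replicate 1 gave 15 members lower, leaving out replicate 3 gave 11, and leaving out the F5 library of ICZ replicate 1 alone gave 22, where 11.6% of all 13271 genes were lower. Without that library Cox7a1 (-0.92), Ndufa6 (-0.52), Atp5g3 (-0.56) and Sdha (-0.44) were still lower than in F2, with edgeR adjusted p between 7.0e-07 and 0.0012. Against F3 those counts were 9, 1 and 12, with 7.45% of all 13271 genes lower in the last of these fits. Without the mouse block 16 members were lower against F2 and 3 against F3. For the fits without replicate 1, without replicate 3 or without the block, the share of all genes is not given here.

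Isoforms of the same subunit are set side by side here, with no test of the difference between them. Cox7a1 had its highest mean in F1 and its lowest in F5 in both treatments, with means of 299, 272, 252, 205 and 134 CPM from F1 to F5 in ICZ mice and 318, 276, 283, 250.3 and 184 CPM in vehicle mice. Its widely expressed counterpart Cox7a2 averaged 762, 879.7, 837, 738 and 579.8 CPM in ICZ mice and 809.5, 751, 919, 859.5 and 666 CPM in vehicle mice, with its highest mean in F2 of ICZ mice and F3 of vehicle mice and its lowest in F5. Cox7a2l, a related protein that joins complexes III and IV into supercomplexes, had means between 102 and 123 CPM in ICZ mice and between 116 and 140.2 CPM in vehicle mice, with a log2 fold change of F5 against F1 of 0.19 in ICZ mice and 0.18 in vehicle mice (edgeR adjusted p = 0.26 and 0.29). Without the F5 library of ICZ replicate 1 it was 0.31 in ICZ mice (adjusted p = 0.033).

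Atp5g3 and Atp5g1 encode the same mature subunit c from separate genes. Atp5g3 was called lower in F5 of vehicle mice, and in ICZ mice it had 937, 1863 and 1383 CPM in F5, against 1539.6 and 2027 CPM in F1, where the groups overlapped (-0.36 ± 0.17; edgeR adjusted p = 0.11). Atp5g1 had 128, 215 and 160.3 CPM in F5, against 162 and 156 CPM in F1 of ICZ mice, and 187, 153 and 152 CPM in F5, against 172, 153 and 139 CPM in F1 of vehicle mice. Its groups overlapped in both treatments, with log2 fold changes of 0.08 ± 0.16 and 0.09 ± 0.12 (adjusted p = 0.73 and 0.63). Without the F5 library of ICZ replicate 1, Atp5g3 was at -0.14 (edgeR adjusted p = 0.39) and Atp5g1 at 0.27 (adjusted p = 0.14) in ICZ mice. Atp5g2, the further gene for subunit c, had 227 reads in all 29 libraries and an end that is shared with other genes, so its fold changes are not read.

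For the remaining isoform sets the widely expressed form held nearly all reads. Cox6a1 had 232869 reads in total and the muscle form Cox6a2 152, and Cox4i1, the common form of the subunit that starts the assembly of complex IV, had 196879 reads beside the 7 of Cox4i2. Cox8a was at 300.1, 297 and 357 CPM in F5, against 384, 373 and 310.0 CPM in F1 of vehicle mice, with groups that overlap and a log2 fold change of -0.15 ± 0.14 (edgeR adjusted p = 0.44). Subunit 7a is thus the set in which a form named for muscle was present at a level far above 0 in every library.

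**Figure D3:**
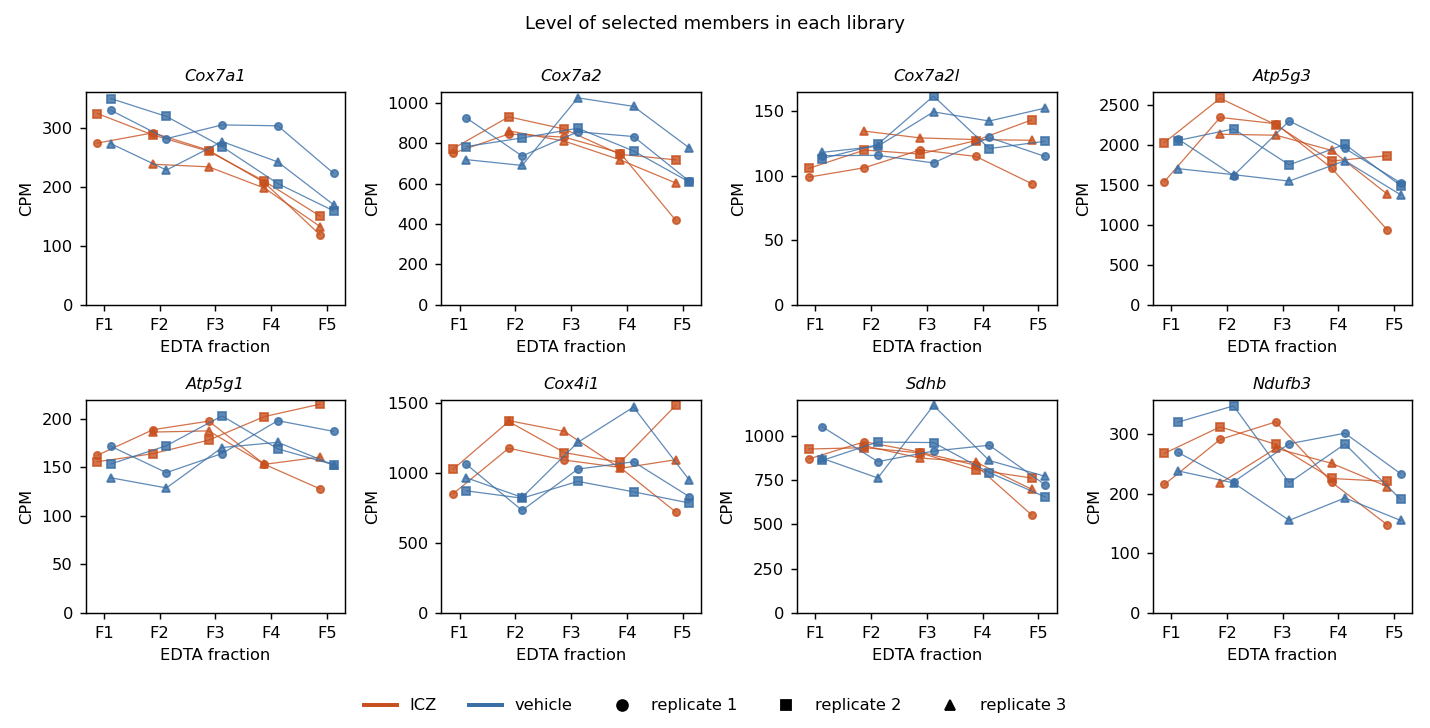
Level in CPM of 8 members in every library over fractions F1 to F5, with ICZ in orange left of vehicle in blue and a symbol for each replicate. Cox7a1 is lowest in F5 in both treatments, the F5 and F1 values of Cox7a2l and Atp5g1 overlap in both treatments, and Cox4i1 stands apart between treatments in F2 alone.

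Promoters were printed for called members that differ in the motifs they hold, since genes of the respiratory chain are classically described as sharing NRF1, ETS (NRF2/GABP), YY1 and ERR motifs. Sequences are the 250 bases before the annotated start in RefSeq on GRCm38.p6, with an entry for 74 of the 89 members and 7 of the 8 called in vehicle mice, and capitals mark a motif match. Cox7a1 lies at chr7:30183921-30184170 on the plus strand, Cox6a1 at chr5:115348959-115349208 and Atp5g3 at chr2:73911327-73911576, both on the minus strand.
Cox7a1: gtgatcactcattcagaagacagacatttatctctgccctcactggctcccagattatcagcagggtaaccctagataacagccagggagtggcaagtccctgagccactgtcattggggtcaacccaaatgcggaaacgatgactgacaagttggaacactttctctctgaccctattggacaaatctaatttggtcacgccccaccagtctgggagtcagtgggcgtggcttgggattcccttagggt
Cox6a1: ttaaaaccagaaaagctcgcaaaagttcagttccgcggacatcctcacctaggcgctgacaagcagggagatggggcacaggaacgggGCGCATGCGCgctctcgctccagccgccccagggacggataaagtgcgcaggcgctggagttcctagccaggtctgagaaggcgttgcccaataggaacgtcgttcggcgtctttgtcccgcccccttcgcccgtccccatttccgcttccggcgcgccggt
Atp5g3: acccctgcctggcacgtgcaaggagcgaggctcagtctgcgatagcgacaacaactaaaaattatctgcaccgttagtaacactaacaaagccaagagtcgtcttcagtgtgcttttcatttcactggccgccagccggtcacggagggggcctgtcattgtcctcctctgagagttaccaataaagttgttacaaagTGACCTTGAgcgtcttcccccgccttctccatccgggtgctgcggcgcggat

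The letters searched, on both strands, were the 10-letter palindrome in capitals in the Cox6a1 promoter for NRF1, CCGGAAGT for ETS, AAGATGGC for YY1 and TCAAGGTCA for ERR. NRF1 letters were in 4 of 74 members (5.41%: Ndufa11, Cox6a1, Atp5g2 and Atp5k), against 0.877% of 27025 genes. ETS letters were in 3 members (4.05%, against 3.23% of all genes), YY1 letters in 2 (2.70%, against 1.83%) and ERR letters in 1, Atp5g3 (1.35%, against 0.422%), which reads TGACCTTGA on the gene's strand. Among the 7 members called lower in vehicle mice with an entry, this match of Atp5g3 was the only one. The window of Cox7a1 held none of the 4 motifs. It held 4 CpG dinucleotides, against a median of 14 in the 74 members, and 3 of 74 members, Cox7a1 included, had as few or fewer. Over all 27025 genes the median was 6, and 44.5% had as few as Cox7a1 or fewer. A match is a description of these letters, not of a bound site, and a missing match says nothing of the factor.

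Genes around the respiratory chain were counted in the same F5 against F1 comparison, in which 16.5% of all genes were higher and 16% lower in ICZ mice, and 14.9% higher and 13.2% lower in vehicle mice. Cytochrome c (Cycs), the carrier between complexes III and IV, was lower in both, at 96.4, 106 and 89.5 CPM in F5, against 175 and 172 CPM in F1 of ICZ mice, and at 102, 117 and 99.9 CPM in F5, against 179, 174 and 180.1 CPM in F1 of vehicle mice. Its log2 fold change was -0.79 ± 0.11 in ICZ mice and -0.73 ± 0.12 in vehicle mice (edgeR adjusted p = 3.1e-05 and 0.00029), while Cyc1, the cytochrome of complex III, was not called. Of the 7 tested mitochondrially encoded subunits, 2 were higher in F5 of ICZ mice (mt-Cytb and mt-Nd1) and 0 in vehicle mice. Of 17 genes of the citric acid cycle and pyruvate dehydrogenase, 6 were lower and 0 higher in each treatment, among them Dlst and Ogdh of the 2-oxoglutarate dehydrogenase complex. Dlst fell by 0.68 on the log2 scale in ICZ mice and by 0.70 in vehicle mice, which is more than any member but Cox7a1. Glycolysis genes had 7 of 14 lower in each treatment, among them Gpi1, and 1, Hk2, was higher in vehicle mice. Without the F5 library of ICZ replicate 1, where 20.7% of all genes were higher and 20% lower, Cycs (-0.78), Dlst (-0.66), Ogdh (-0.92) and Gpi1 (-0.89) were still lower and mt-Cytb (0.59) and mt-Nd1 (0.42) still higher in ICZ mice by edgeR, with 6 citric acid cycle genes lower and 2 higher and 8 glycolysis genes lower.

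In F5 against F1, 16.5% of all genes were higher and 16% lower in ICZ mice, and 14.9% higher and 13.2% lower in vehicle mice. Without the F5 library of ICZ replicate 1 the shares in ICZ mice were 20.7% and 20%. Of 42 tested assembly factors, 8 were higher and 1 lower in ICZ mice, and 4 higher and 3 lower in vehicle mice. Among those higher was Bcs1l, which inserts the Rieske protein into complex III. It stood at 0.93 ± 0.21 in ICZ mice and 0.62 ± 0.22 in vehicle mice (edgeR adjusted p = 0.0022 and 0.043). Among 13 regulators of mitochondrial genes, 4 were higher and 2 lower in ICZ mice and 4 higher and 1 lower in vehicle mice. Tfam, which packages and transcribes mitochondrial DNA, was higher by 0.77 ± 0.17 in ICZ mice and 0.61 ± 0.15 in vehicle mice, and Pprc1, a coactivator, by 1.64 ± 0.32 in ICZ mice and 1.35 ± 0.27 in vehicle mice. Ppargc1a, the coactivator known for driving mitochondrial biogenesis, was lower by the same test, at -0.81 ± 0.15 in ICZ mice and -0.72 ± 0.15 in vehicle mice (edgeR adjusted p = 0.00059 and 0.0018). It had 119, 96.1 and 97.4 CPM in F5, against 152 and 233 CPM in F1 of ICZ mice, and 148, 135 and 89.1 CPM in F5, against 176, 221 and 205 CPM in F1 of vehicle mice. Of 10 carriers and outer membrane genes 2 were higher and 4 lower in ICZ mice, and 1 higher and 2 lower in vehicle mice. In vehicle mice the 4 of 42 assembly factors called higher are a smaller share than the 14.9% of all genes. Without the F5 library of ICZ replicate 1 there were 10 assembly factors higher and 1 lower, 4 regulators higher and 1 lower, and 3 carriers and outer membrane genes higher and 4 lower in ICZ mice, with Bcs1l at 0.98, Tfam at 0.97, Pprc1 at 1.89 and Ppargc1a at -0.99, all 4 still called by edgeR.

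To ask whether ICZ changed the respiratory chain, each mouse was reduced to its summed F2, F3, F4 and F5 counts, and the 3 ICZ mice were set against the 3 vehicle mice. No member was called in either direction, and 0% of all 15497 genes were called. At an unadjusted p under 0.05 there were 2 members, Cox6b2 and Cox4i1, and 886 genes (5.72%). The median over 81 members was 0.03, against 0.01 over all genes, and the medians of complexes I to V lay between 0.02 and 0.07. Of the tested genes, 13 of 81 members and 1783 of 15497 genes had no overlap between the 3 ICZ and the 3 vehicle mice. Without ICZ replicate 1, 0 members were called as well. DESeq2 and limma also called 0 members, and so did a fit with the replicate number as a block, in which 0.749% of all genes were higher and 0.742% lower, and 14 members were higher and 2 lower at an unadjusted p under 0.05 (14.8% of all genes).

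The members of smallest p in the higher direction were Cox6b2, Cox4i1 and Sdhc. Cox4i1 (chr8:120668222-120674207) had 1052, 1310.1 and 1256 CPM in ICZ mice, against 939.8, 867 and 1132 CPM in vehicle mice, with an overlap (0.30 ± 0.13; edgeR adjusted p = 0.85). Sdhc, a membrane anchor of complex II, had 204, 221 and 195 CPM, against 192, 185 and 147 CPM in vehicle mice, which stood apart by little (0.24 ± 0.11; adjusted p = 0.85). Cox6b2, the testis form of subunit 6b, had 5.05, 5.77 and 6.02 CPM, against 4.02, 4.63 and 4.23 CPM in vehicle mice (0.38 ± 0.15; adjusted p = 0.85). The smallest p in the lower direction were those of Cox7a1, at 234, 226 and 210.1 CPM in ICZ mice and 286, 241 and 232 CPM in vehicle mice (-0.18 ± 0.10), and of Ndufs5 and Atp5l, both at under 15 CPM and with shared ends.

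In single fractions the call of ICZ against vehicle was also 0 members in each of F1 to F5, while 0.0324% of all genes were called higher in F1, 0.0165% lower in F2 and 0.00815% higher in F3, and 0% in the other cases. The numbers of members at an unadjusted p under 0.05 were 1, 13, 3, 0 and 1 from F1 to F5. Of all genes, 4.39%, 12%, 9.15%, 2.89% and 2.79% reached that p in either direction. The 13 members in F2 were all higher in ICZ mice. The medians were -0.04, 0.10, -0.01, -0.06 and -0.02. In F2, 59 of 79 members were above 0, including all 7 tested subunits of complex III and 11 of 13 of complex V.

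Cox4i1 in F2 came nearest to the threshold. It had 1175, 1365 and 1372 CPM in ICZ mice, against 732, 819 and 825 CPM in vehicle mice. Every ICZ value was well above every vehicle value, with a log2 fold change of 0.69 ± 0.13 and an edgeR adjusted p of 0.089. With the replicate number as a block the adjusted p was 0.0014, and it passed in DESeq2 (0.00023), without a filter on low counts (3.5e-06) and without ICZ replicate 1 (0.0076), while it lay between 0.15 and 0.47 without each of the other 5 mice. The groups overlapped in the other fractions, with log2 fold changes of -0.04 in F1, 0.14 in F3, -0.12 in F4 and 0.37 in F5.

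In F3 the vehicle mice were themselves uneven. Sdhd, a membrane anchor of complex II, had 68.8, 81.2 and 39.8 CPM in ICZ mice, against 35.8, 14.3 and 14.8 CPM in vehicle mice (1.53 ± 0.47; edgeR adjusted p = 0.49). Ndufa1, a short membrane-arm subunit, had 146, 137 and 118 CPM in ICZ mice, against 121, 63.0 and 39.7 CPM in vehicle mice, and Cox5a 17.1, 18.0 and 12.9 CPM, against 10.3, 1.13 and 0.963 CPM. In each of these the low values were those of vehicle replicates 2 and 3, and Ndufs8 was high in vehicle replicate 3, at 134, 141 and 143 CPM in ICZ mice, against 139, 147 and 205 CPM in vehicle mice. Without vehicle replicate 1, 10 members were called higher in ICZ mice (Cox5a, Sdhd, Ndufa1, Atp5j, Ndufb3, Ndufa4, Uqcrc2, Uqcrfs1, Sdhc and Ndufb6), by a fit that then rests on those 2 vehicle libraries. Of these 10, Cox5a, Uqcrc2 and Ndufb6 are among the members with shared ends and uncertain counts. The share of all genes called in that fit is not given here. The count of 10 is therefore not read as a result about the members. The genes named for F3 were chosen after their values had been seen.

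In F5 the member of smallest p was Cox7a1, at 118, 150.3 and 133 CPM in ICZ mice, against 223, 159 and 169.7 CPM in vehicle mice. All ICZ values lay below all vehicle values, but the log2 fold change of -0.44 ± 0.18 did not pass (edgeR adjusted p = 1.0; unadjusted p = 0.038; 2.79% of all genes reached an unadjusted p under 0.05). Without ICZ replicate 1 it was -0.38 (adjusted p = 0.81), and 0 members were called. A change of the ICZ effect over fraction number, tested over the 29 libraries in a fit blocked on the mouse, was called for 0 members, with 0% of 14067 genes higher and 0.0142% lower, and 5.64% at an unadjusted p under 0.05. Cox7a1 again had the smallest p, at -0.09 ± 0.04 log2 units per fraction (adjusted p = 0.79). A difference of the ICZ effect between F2 and F1 was called for 0 members, although 72 of 81 were above 0 with a median of 0.20, against 0.03 over all genes, and 0% of genes were called. At an unadjusted p under 0.05, 10 members were higher and 1 lower, and 6.77% of all genes reached it.

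**Figure D4:**
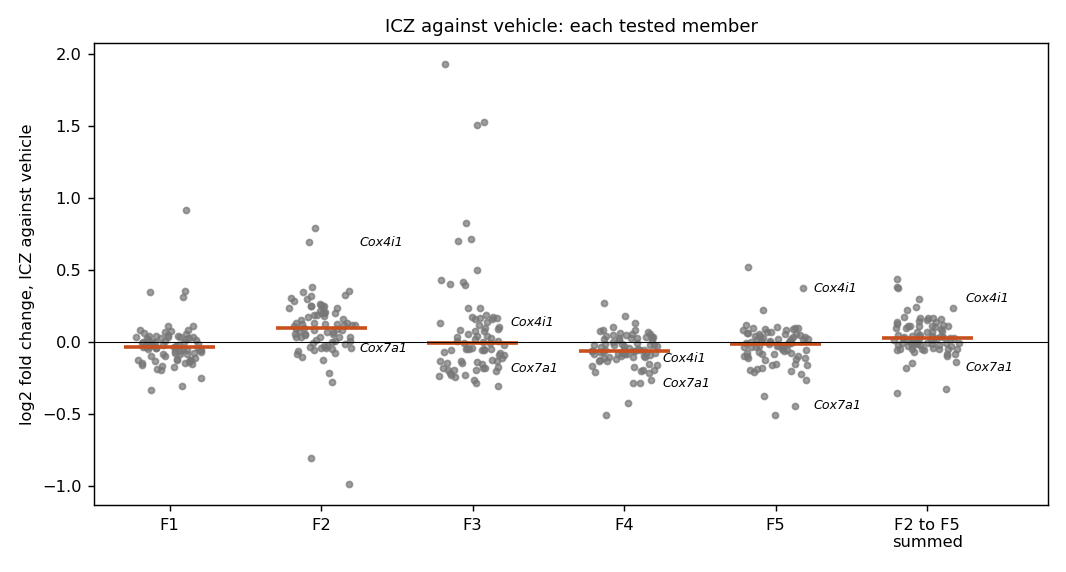
Log2 fold change of ICZ against vehicle for each tested member (points) in F1 to F5 and on the summed counts of the last 4 fractions, with the median over members as a bar. The medians lie between -0.06 and 0.10 and no point passed an adjusted p of 0.05; Cox4i1 in F2 stands at 0.69.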

How the data were processed

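The authors deposited 1 table of raw read counts per gene for QuantSeq 3′ end libraries. Per the submitters' processing notes, reads were handled with BWA 0.7.17-r1188, SAMtools 1.10, HTSeq 0.11.2 and FastQC 0.11.2 on mouse build GRCm38.p6 (mm10). Whether the counting used strand, which annotation release it used and whether molecular identifiers were counted is not given in the sources used here. Reads of overlapping genes therefore cannot be told apart. Lines that name no gene stayed out of library sizes and tests; reads in genes were 51.6% to 61.6% of counted reads, those of too low alignment quality 18.0% to 26.5%.

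Groups follow the sample labels, and 1 sample labelled as undetermined entered no comparison. Counts were tested with edgeR 4.0.16 in R 4.3.3: filterByExpr, TMM scaling, robust quasi-likelihood F test, Benjamini-Hochberg adjustment over all genes at 0.05. Fractions were compared with the mouse as a block. In F5 against F1 of ICZ mice, replicate 3 has no F1 library. Its F2 to F5 libraries still enter the fit and bear on the fold change and the spread. ICZ was compared with vehicle without a block. Each SE was derived from the fold change and its F statistic. CPM use TMM library sizes. For ICZ against vehicle without a block, the p-values measure the spread between 3 mice a group, with 2 ICZ mice in F1. In fits with the mouse as a block they measure the spread left within mice. DESeq2 1.42.0 and limma 3.58.1 served as alternatives, and the procedure was tested on simulated data. Replicate libraries differed beyond sampling noise, with chi-square per degree of freedom of 4.74 to 96.1 over 28 pairs. Same-numbered ICZ and vehicle mice deviated together, with correlations of 0.48, 0.24 and 0.52 between their deviations from group means, so the replicate block was also fitted. Gene ends and overlaps come from GENCODE M21, whose positions on GRCm38 are printed, counted from 1.

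The members and gene lists were chosen with earlier results of these data known. Named were up to 3 members per direction and complex of smallest p among those called in F5 against F1 of vehicle mice, up to 3 per direction in the summed ICZ comparison, any member called in a single fraction, and the isoform sets; others were chosen after their values were seen.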

Additional observations from a re-analysis of the deposited data

How the results depend on the processing

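Settings that moved a count of calls beyond 1.5 times are given here by comparison, and the cause was not tested in any. For most of these settings the share of all genes called is not given. The counts therefore show how the calls of members moved, not whether members differ from all genes. For F5 against F1 in vehicle mice, 1 member was lower without the mouse block, and F4 in place of F5 gave 1 higher, 0 lower and a median of 0.049; leaving out each replicate gave 1 to 10 lower. For F5 against F1 in ICZ mice, 11 were lower without a filter on low counts and 1 with F4 in place of F5. Leaving out the F5 library of ICZ replicate 1 gave 4 higher and 5 lower, and leaving out replicate 3 gave 3 lower. For F5 against F2 in vehicle mice (1 lower, Cox7a1), 0 were lower without the mouse block, 2 without the filter and 3 in DESeq2, and 0 to 3 with a replicate left out. For F5 against F3 in vehicle mice, 0 were lower without the mouse block, 11 in DESeq2, and 10 lower and 3 higher without the filter; leaving out replicates gave 0 to 6 lower and 0 to 5 higher. In ICZ mice, F5 against F2 had 16 lower without the mouse block and 11 to 25 with a replicate left out. F5 against F3 had 3 without the block, 14 with library sizes that leave out members, mitochondrial and the top 10 genes, and 1 to 16 with a replicate or library left out.

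With the replicate block, ICZ against vehicle in F2 had 1 member higher, Cox4i1, as it had without the filter and in DESeq2; leaving out replicates gave 0 to 1. In F3, 3 were higher without the filter and 0 to 10 with a replicate left out. On the summed counts the replicate block called 0 members, with 14 higher and 2 lower at an unadjusted p under 0.05, and it changed no other member's call. The median ICZ effect in F1 was -0.12 to 0.00034 with a replicate or library left out, and the median change of the ICZ effect per fraction -0.055 to 0.013 with a replicate or library left out; as F5 against F2 it was -0.17.

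With F4 in place of F5, Cox7b (0.11), Atp5f1 (0.0013), Cox4i1 (0.21), Cox7a2 (0.079), Cox8a (0.21) and Ndufa4 (0.19) turned positive in vehicle mice, and Cox7b (0.15), Atp5g3 (0.032) and Atp5f1 (0.10) in ICZ mice. Ndufa4 lay between -0.21 and 0.010 in vehicle mice with a replicate left out, and Cox7b between -0.31 and 0.011 in ICZ mice with a replicate or library left out. Cox7a1 was called in F5 against F1 under every alternative tried but F4 in place of F5 in vehicle mice (-0.35, adjusted p = 0.070). Depth limits members under about 10 CPM and those with shared ends.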

Other observations

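The library labelled as undetermined, which belongs to no group, had 7484796 reads in genes, of which 2.47% fell in members and 25.7% in mitochondrially encoded genes.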
